A study of Mus musculus with 18 samples.

Results

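The nuclear genes of oxidative phosphorylation were followed across 6 groups of RAW264.7 cells, an established line of mouse macrophages. The members were all symbols of the deposited expression table that name subunits by pattern: Nduf followed by a, b, c, s or v and a number for complex I, Sdha to Sdhd for complex II, symbols starting with Uqcr for complex III, Cox4 to Cox8 for complex IV and Atp5 for complex V, with pseudogene symbols left out. This rule used no measured value. It gave 83 of 24411 symbols, namely 36 genes of complex I, 4 of complex II, 8 of complex III, 18 of complex IV and 17 of complex V. The members lie on 19 chromosomes. Of the 83, 79 reached 1 TPM (the deposited unit, a transcript's share of a library corrected for its length) in at least 3 libraries and were tested, and the 4 others, the complex IV isoform genes Cox6b2, Cox7b2, Cox8b and Cox8c, were listed at 0 in every library.

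Oxidative phosphorylation takes place in the inner mitochondrial membrane. Complexes I, III and IV pump protons as electrons pass from NADH to oxygen, complex II feeds in electrons from succinate, and complex V, the ATP synthase, uses the proton gradient to make ATP. Most subunits are encoded in the nucleus and a few in the mitochondrial genome, whose genes were not analysed here. In macrophages, stimulation with lipopolysaccharide and interferon gamma is known to move energy metabolism toward glycolysis, while cells given interleukin 4 keep respiring. The symbol patterns and the complexes do not match in every case. Ndufa4 is now counted with complex IV, Cox7a2l is a factor that joins complexes into supercomplexes, the product of Atp5sl (now Dmac2) is known from human cells as an assembly protein of complex I, Atp5s is now Dmac2l, and subunits such as Cyc1 and Ndufab1 have symbols outside the patterns.

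The groups were Kdm7a-deficient (KO) cells and cells that received a control guide RNA, in each of 3 conditions held for 48 h. M1 cells received 2 ng/ml interferon gamma together with 0.1 µg/ml lipopolysaccharide. M2 cells received 20 ng/ml each of the interleukins IL-4, IL-10 and IL-13, plus 2 ng/ml human TGF-β1, and M0 cells were left unstimulated. Each group had 3 libraries of poly(A) RNA. The labels do not say how many lines or clones stand behind each genotype, so line differences and the loss of Kdm7a, a histone demethylase, cannot be told apart. They also do not say that libraries of a group came from separate cultures, so p-values measure the spread between libraries, which may be technical.

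Kdm7a itself had 7.66, 7.63 and 7.19 TPM in KO cells under M1, against 30.32, 29.96 and 28.71 TPM in control cells. It had 5.83 to 7.54 TPM in KO cells under M2 against 22.21 to 24.47 TPM in control cells, and 3.25 to 3.52 TPM in unstimulated KO cells against 10.96 to 11.29 TPM in unstimulated control cells. KO libraries were lower than control libraries in each condition. Between 10316 and 10884 genes reached 1 TPM in a library, and sequencing depth is unknown. KO M2 replicate 1 stood apart in the members' summed level, with 30297 TPM against 28532 and 28443 TPM in KO M2 replicates 2 and 3. The 8 macrophage markers checked summed to 3630.5 to 5827.9 TPM and none was at 0, while 5 markers of other cell types summed to at most 0.33 TPM. The macrophage markers summed to less in KO than in control cells in each condition. Under M1, for example, they summed to 3887.5 to 3990.1 TPM in KO and 4715.2 to 4825 TPM in control cells. In the gene tests described below, 6 of the 8 were lower in KO cells and 1 higher under M1. Without stimulation 6 were lower and 2 higher, while under M2 only 2 were lower, 1 was higher and 5 were not called. The part of this difference in the knockout results was not tested. TPM are shares of a fixed total, so a change in TPM cannot be told apart from a change in the rest of the transcriptome, and in bulk libraries fewer cells and less RNA per cell cannot be told apart.

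The respiratory chain transcripts took up less of the transcriptome under M1 and stayed near their level under M2. The members together held 1.41% of all TPM in KO cells under M1 and 1.32% in control cells under M1, against 2.93% in unstimulated KO cells and 2.83% in unstimulated control cells. As sums these were 14099 ± 101 TPM in KO cells and 13194 ± 23.6 TPM in control cells under M1, against 29326 ± 264 TPM in unstimulated KO cells and 28283 ± 58.6 TPM in unstimulated control cells (SD, n = 3 each). Under M2 the sum was 29091 ± 1046 TPM in KO cells and 29522 ± 328 TPM in control cells. The M1 libraries lay far below all others. The M2 libraries of KO cells (28443 to 30297 TPM) overlapped the unstimulated KO libraries (29023 to 29499 TPM), and those of control cells (29144 to 29726 TPM) lay slightly above the unstimulated control libraries (28216 to 28325 TPM).

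**Figure D1:**
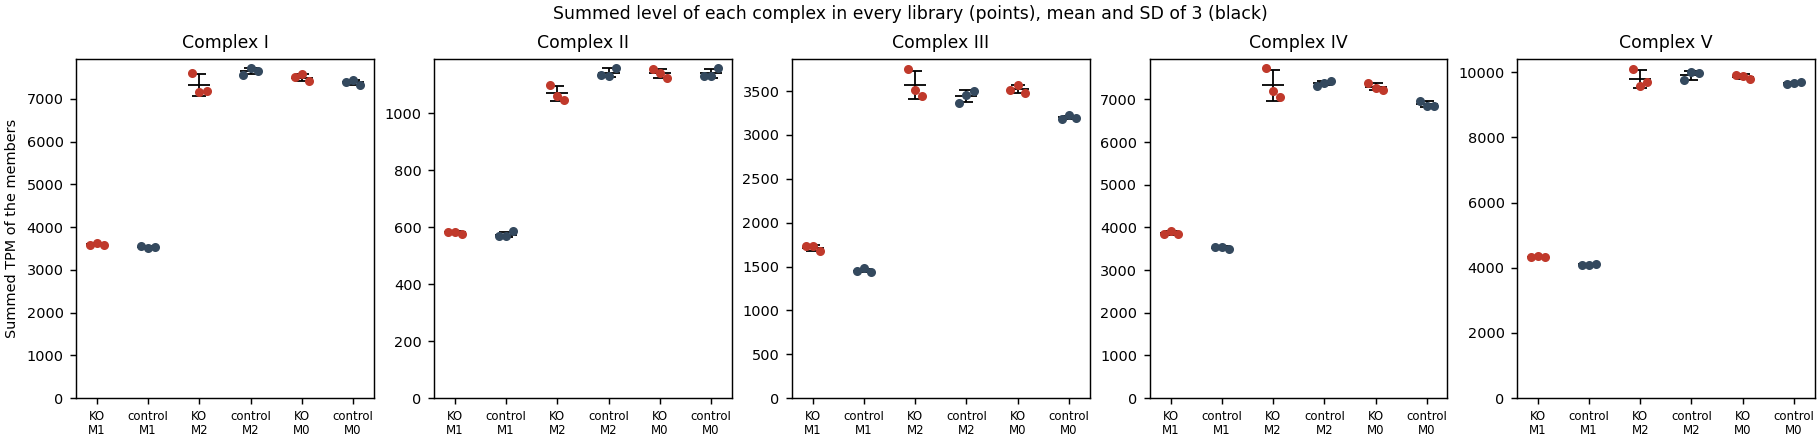
Summed TPM of the members of each complex in every library (points), with the mean and SD of 3 libraries (black), for KO (red) and control (blue) cells under M1, M2 and without stimulation. Each complex has its own axis starting at 0. In all 5 panels the M1 libraries sit near the middle of the axis or lower and the M2 libraries sit with the unstimulated ones.

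The fall was unequal between complexes. Under M1, complex V held 42.4% of its unstimulated sum in control cells and complex IV 51.3%, with complex III at 45.5%, complex I at 47.8% and complex II at 50.4% between them. In KO cells the order of the ends was the same, with complex V at 43.9% and complex IV at 53.0% of their unstimulated sums. The share of complex V in the members' own TPM was 30.75 ± 0.139% in KO and 31.11 ± 0.185% in control cells under M1, against 33.66 ± 0.0603% in unstimulated KO and 34.21 ± 0.195% in unstimulated control cells (SD, n = 3 each). The share of complex IV moved the other way, to 27.45 ± 0.0874% in KO and 26.75 ± 0.237% in control cells under M1, against 24.90 ± 0.175% in unstimulated KO and 24.34 ± 0.208% in unstimulated control cells. These differences are several times the SD between libraries. They do not depend on how libraries are scaled, since they are ratios within a library. Leaving out the 3 genes of the c subunit, complex V held 46.1% of its unstimulated sum in control cells and 48.0% in KO cells, close to complexes I and III.

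Gene by gene, 75 of the 79 tested members fell under M1 in control cells, 2 rose and 2 did not pass the test. Genes were called at an adjusted p below 0.05 by limma on log2(TPM + 1), with Benjamini-Hochberg adjustment over all 11548 genes tested. Of all genes tested, 56.9% were called lower and 32.2% higher in this comparison. A fall of 2-fold or more was found for 49 of 79 members, against 30.9% of all genes tested. The median log2 fold change of the members was −1.20, beside −0.38 over all genes tested. In KO cells 74 members fell, 3 rose and 2 did not pass, with a median of −1.14 beside −0.43 over all genes tested. In that comparison 58.4% of all genes were called lower, 32.0% were called higher and 33.6% fell by 2-fold or more, as did 49 members. Of the members, 74 fell and 2 rose in both genotypes, an overlap that was not counted over all genes tested.

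Because the median gene also fell, the libraries were rescaled by trimmed means (TMM) or by median ratios. The median of all genes in control cells then stood at 0.08 with TMM and 0.01 with median ratios. The members' median lay 0.82 below that of all genes as deposited, 0.73 below with TMM and 0.75 below with median ratios (log2 scale). In KO cells the distances were 0.71, 0.61 and 0.62. With TMM, 66 members fell and 9 rose in control cells, and 63 fell and 13 rose in KO cells. Across all called genes the share of higher calls in control cells was 36.1% as deposited and 53.2% with TMM, and in KO cells 35.4% and 52.8%.

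**Figure D2:**
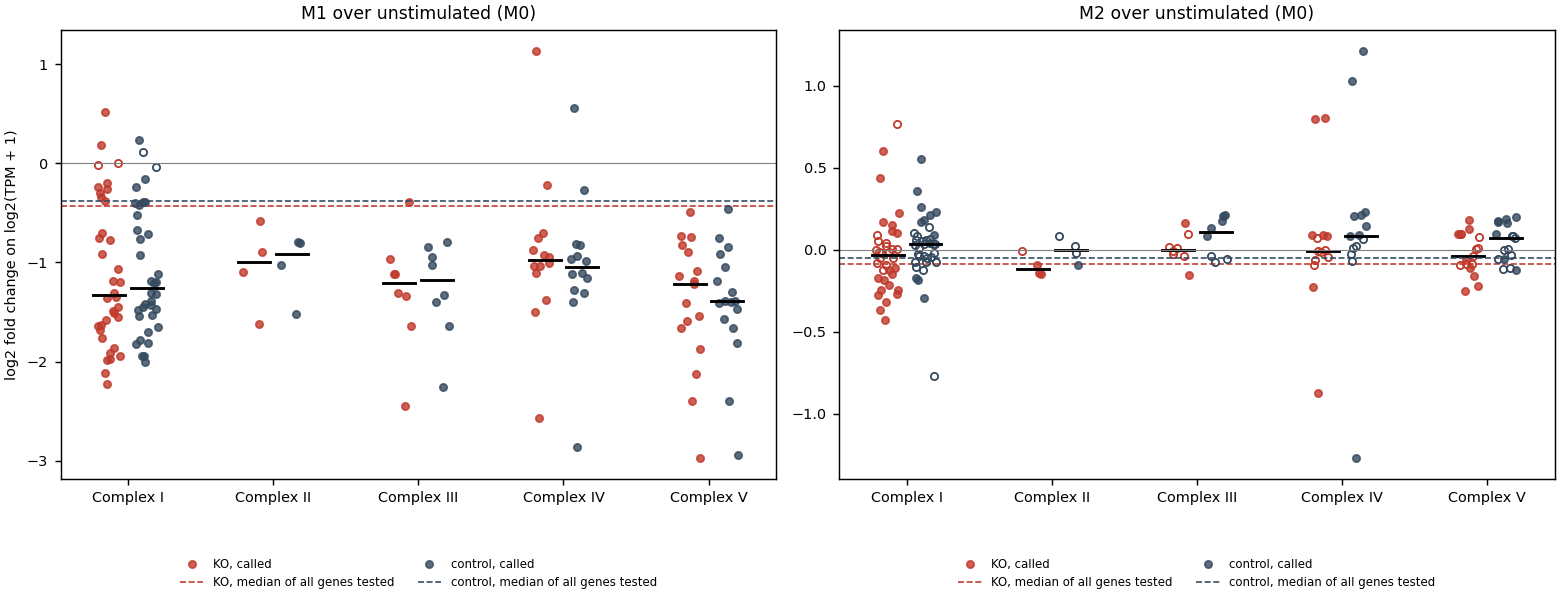
Log2 fold change (log2 of TPM + 1) of every tested member by complex, for the M1 response (left panel) and the M2 response (right panel) of KO cells (red, left in each pair) and control cells (blue). Filled points passed the test and open points did not, black bars are medians of a complex and dashed lines are the medians of all genes tested in each genotype. Most points of the M1 panel lie below the dashed lines, and those of the M2 panel lie around 0.

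Complex I takes electrons from NADH. Of its 36 genes, 33 fell, 1 rose and 2 did not pass under M1 in control cells, with a median of −1.26 and 22 falls of 2-fold or more. In KO cells 32 fell, 2 rose and 2 did not pass, with a median of −1.32. With TMM, 25 fell and 9 rose in KO cells and 26 fell and 6 rose in control cells. The 7 core subunits kept from bacteria to mammals all fell in control cells, with a median of −1.43, except that Ndufs3 rose with TMM and with median ratios. By module, the 5 genes of the quinone-binding Q module fell with a median of −1.65 (4, without Ndufs3, with TMM). The 10 genes of the NADH-binding N module had a median of −1.01, with 8 falls and 1 rise (6 and 3 with TMM). Of 20 genes of the proton-pumping P module 19 fell, with a median of −1.20 (15 falls and 2 rises with TMM). The sets hold few genes, and no test of a difference between modules was made.

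Ndufs7, a core subunit that carries an iron-sulfur cluster near the quinone site, had the largest fall of complex I in control cells. It had 38.65, 40.9 and 42.85 TPM in KO cells and 41.03, 41.67 and 43.62 TPM in control cells under M1. Unstimulated cells had 160.6, 167.07 and 164.49 TPM in KO cells and 175.53, 171.89 and 166.34 TPM in control cells. The M1 and unstimulated libraries were far apart, with a log2 fold change of −1.98 ± 0.0365 in KO cells (SE, limma adjusted p = 4.75e-21) and −1.999 ± 0.0365 in control cells (4.87e-21). Ndufa5, an accessory subunit of the Q module, had the largest fall in KO cells. It had 26.59, 29.34 and 27.97 TPM under M1 against 135.16, 141.75 and 126.35 TPM without stimulation in KO cells, a log2 fold change of −2.22 ± 0.0687 (limma adjusted p = 1.12e-16).

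Ndufs4 was the complex I gene that rose in both genotypes on the deposited scale. It encodes an accessory subunit of the N module whose loss in mice and humans causes a disease of the Leigh type. It had 83.13, 95.12 and 85.76 TPM in KO cells and 92.88, 96.66 and 88.81 TPM in control cells under M1. Without stimulation it had 79.79, 79.21 and 73.18 TPM in KO cells and 77.58, 76.96 and 81.7 TPM in control cells. The M1 libraries were higher than the unstimulated ones without overlap in both genotypes. The log2 fold change was 0.18 in KO cells (limma adjusted p = 0.00813) and 0.23 ± 0.06 in control cells (0.00124). The call in KO cells was lost without KO M1 replicate 2 (limma adjusted p = 0.0652, with a range of 2.81e-09 to 0.0652 over 14 alternatives). Rescaling made both rises larger, up to 0.79 in KO and 0.78 in control cells.

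Ndufv3, an accessory subunit of the flavoprotein part, went its own way as well. It had 270.83, 277.97 and 279.69 TPM in KO cells and 215.76, 220.8 and 200.16 TPM in control cells under M1, so KO libraries were higher without overlap. Unstimulated cells had 172.73, 201.74 and 204.21 TPM in KO cells and 191.68, 215.37 and 182.05 TPM in control cells. Its M1 response was a rise of 0.52 in KO cells (limma adjusted p = 4.77e-07), while in control cells the value of 0.11 did not pass (0.104). Both are on the deposited scale, and rescaling moved M1 values up. The members' median in control cells was −1.20 as deposited and −0.65 with TMM. In KO cells the rise of Ndufv3 ran from 0.44 to 1.13 over 14 alternatives. The missing call in control cells is therefore given for the deposited scale only. The difference between the responses was 0.41 ± 0.0909 (limma adjusted p = 0.00208). Under M2, Ndufv3 rose by 0.60 in KO cells (1.57e-07) and by 0.56 in control cells (6.02e-07), the largest called rise of complex I in both.

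**Figure D3:**
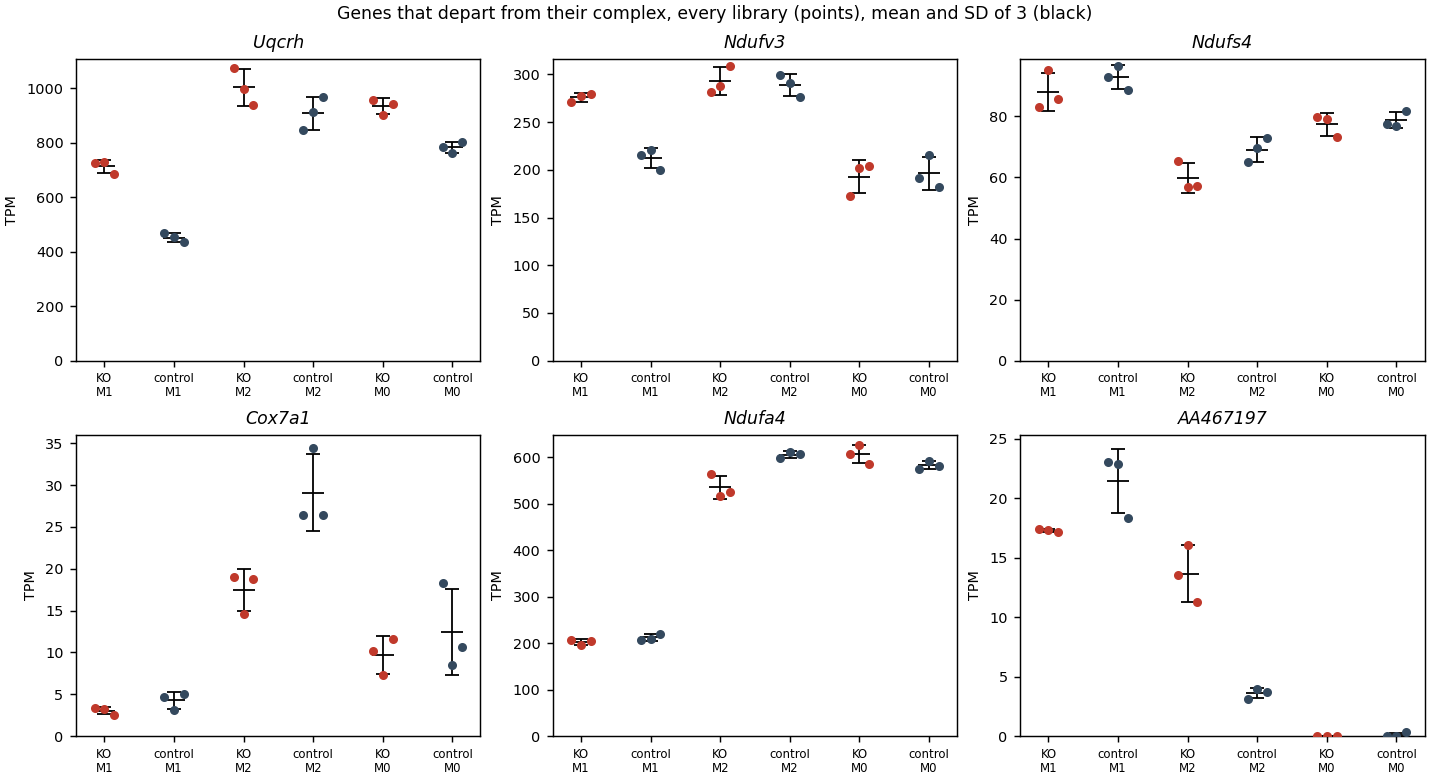
TPM in every library (points), with the mean and SD of 3 libraries (black), of 5 members and of AA467197, in KO (red) and control (blue) cells under M1, M2 and without stimulation. Uqcrh and Ndufv3 were higher in KO than in control cells under M1, Ndufs4 rose under M1 and fell under M2, Cox7a1 rose under M2, and AA467197 was near 0 without stimulation.

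Ndufs3, a core subunit of the Q module, fell by 0.24 in control cells (limma adjusted p = 2.27e-05), while in KO cells its value of −0.02 did not pass (0.707). Its direction depended on scaling, with 0.60 in KO and 0.31 in control cells under TMM and 0.52 in KO and 0.22 in control cells under median ratios, all passing limma's test as rises. The difference between these responses was 0.23 (limma adjusted p = 0.00619). Ndufs5 was listed at 0 in 15 of 18 libraries and at 3.92 TPM in KO M2 replicate 3, 3.59 TPM in control M1 replicate 1 and 3.97 TPM in control M0 replicate 2. A subunit gene of this kind is not known to be silent, so a 0 may be a failed estimate, and no change is read from it.

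Complex II, succinate dehydrogenase, is encoded wholly in the nucleus and also works in the citric acid cycle. All 4 genes fell under M1 in both genotypes, with a median of −0.999 in KO cells and −0.916 in control cells. Sdha, the flavoprotein that oxidises succinate, had 72.6, 74.63 and 75.19 TPM in KO cells and 79.26, 77.39 and 81.49 TPM in control cells under M1, against 225.63, 234.34 and 228.99 TPM in unstimulated KO cells and 227.77, 232.32 and 227.91 TPM in unstimulated control cells. The M1 libraries were lower without overlap. It fell the most of the complex, by 1.62 in KO cells (limma adjusted p = 1.52e-20) and by 1.52 in control cells (4.99e-20). Sdhb, the iron-sulfur subunit, fell by 0.90 in KO and 0.81 in control cells, and Sdhc, a membrane anchor, by 1.10 in KO and 1.02 in control cells.

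Sdhd, the other membrane anchor and the highest of the complex, had 220.5, 216.29 and 209.31 TPM in KO cells and 186.32, 186.8 and 187.6 TPM in control cells under M1. KO libraries were higher without overlap, by 0.20 ± 0.0355 (limma adjusted p = 8.75e-05). Its M1 response was −0.59 in KO and −0.80 in control cells, and the difference of 0.21 passed the test (limma adjusted p = 0.00279). The fall in KO cells was not seen under TMM, where the value was 0.03 (limma adjusted p = 0.54), nor under median ratios (0.269).

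The other knockout differences of complex II were small. Under M1, Sdha and Sdhc were each lower in KO cells by −0.10 (limma adjusted p = 0.0161 for Sdha and 0.0334 for Sdhc). Under M2, Sdha (0.0108) and Sdhc (0.0262) were each lower by −0.11 and Sdhd by −0.13 (0.0103). Over 14 alternatives the adjusted p under M1 ran to 0.42 for Sdha and 0.59 for Sdhc, and under M2 to 0.0561 for Sdha, 0.181 for Sdhc and 0.1 for Sdhd. Under M1 the Sdha call was lost without KO M1 replicate 1 (0.0717) or control M1 replicate 3 (0.0804), and that of Sdhc without KO M1 replicate 2 (0.145), control M1 replicate 2 (0.0612) or control M1 replicate 3 (0.16). Under M2 the Sdhc call was lost without KO M2 replicate 2 (0.0856) or 3 (0.126) or control M2 replicate 2 (0.0655) or 3 (0.0789), and that of Sdhd without KO M2 replicate 2 (0.0649).

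Complex III passes electrons from quinol to cytochrome c. All 8 genes fell under M1 in both genotypes, with a median of −1.21 in KO cells and −1.18 in control cells. Uqcr11, the smallest subunit, fell the most. It had 79.6, 76.44 and 76.91 TPM in KO cells and 70.61, 76.24 and 77.06 TPM in control cells under M1. Unstimulated cells had 436.69, 442.97 and 403.69 TPM in KO cells and 369.81, 358.49 and 349.8 TPM in control cells. The M1 levels of the genotypes overlapped, while the unstimulated KO libraries were all above the control ones. The log2 fold change under M1 was −2.45 ± 0.0529 in KO cells (limma adjusted p = 1.34e-19) and −2.25 ± 0.0529 in control cells (5.9e-19).

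Uqcrh, the hinge protein that helps cytochrome c1 meet cytochrome c, was the most abundant gene of complex III and had the largest knockout difference of its complex under M1. It had 724.49, 731.07 and 684.93 TPM in KO cells and 467.06, 453.11 and 435.77 TPM in control cells under M1. Without stimulation it had 958.48, 903.35 and 944.21 TPM in KO cells and 785.9, 762.04 and 802.02 TPM in control cells. KO libraries were higher without overlap in both conditions, by 0.66 ± 0.0489 under M1 (limma adjusted p = 2.12e-09) and by 0.26 ± 0.0489 without stimulation (0.000844). The M1 response was −0.39 in KO cells and −0.79 in control cells, a difference of 0.40 ± 0.0691 (limma adjusted p = 0.000171). In KO cells the direction of this response depended on scaling, with 0.23 under TMM and 0.15 under median ratios.

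Under M2, Uqcrh had 1075.58, 997.59 and 937.47 TPM in KO cells and 847.27, 911.71 and 968.57 TPM in control cells. The libraries overlapped, and the difference of 0.14 passed narrowly (limma adjusted p = 0.0336). It was lost in 7 of 14 alternatives (adjusted p from 0.00868 to 0.187), among them those without KO M2 replicate 1 (0.163), KO M2 replicate 2 (0.0716), control M2 replicate 1 (0.187) and control M2 replicate 2 (0.0693). Uqcrh was the only one of 79 tested members called higher in KO cells in all 3 conditions, and none was called lower in all 3. At an unadjusted p under 0.05 by limma, 4 were higher and 0 lower in all 3. These counts were not made over all genes tested, so they are not read as a trait of the members. Complex III as a sum stood at 117.5% of the control level in KO cells under M1, with sums of 1709.6 ± 32.7 TPM in KO and 1454.5 ± 21.3 TPM in control cells (SD, n = 3 each). Uqcrh, with a mean of 713.5 TPM in KO and 452.0 TPM in control cells, had a gap as large as that between the sums.

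Complex IV, cytochrome c oxidase, reduces oxygen. Of 14 tested genes, 13 fell and 1 rose under M1 in both genotypes, with a median of −0.98 in KO cells and −1.05 in control cells. Cox4i1, the common form of subunit 4 and the highest of the complex, had 644.57, 666.61 and 617.34 TPM in KO cells and 650.76, 634.45 and 631.06 TPM in control cells under M1. Without stimulation it had 1353.72, 1285.14 and 1312.26 TPM in KO cells and 1216.18, 1183.26 and 1263.37 TPM in control cells. The M1 libraries of both genotypes lay apart from the unstimulated ones, and the fold changes were −1.03 in KO (limma adjusted p = 8.24e-17) and −0.93 in control cells (5.2e-16).

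The isoform genes of complex IV, which in other tissues replace the common forms, were low in these cells. Cox7a1, known from heart and muscle, had 3.38, 3.26 and 2.53 TPM in KO cells and 4.62, 3.15 and 5.03 TPM in control cells under M1. Under M2 it had 19.05, 14.6 and 18.84 TPM in KO cells and 26.42, 34.44 and 26.46 TPM in control cells. Without stimulation it had 10.22, 7.25 and 11.6 TPM in KO cells and 18.26, 8.52 and 10.63 TPM in control cells. In both genotypes the M2 libraries were the highest and the M1 libraries the lowest, without overlap. It fell by 1.38 in KO (limma adjusted p = 8.58e-05) and by 1.31 in control cells (0.000147) under M1, and rose by 0.80 in KO (0.00851) and by 1.22 in control cells (0.000534) under M2. Its share of the summed Cox7a1 and Cox7a2 level was 5.48 ± 0.513% in KO and 8.30 ± 1.15% in control cells under M2, against 3.003 ± 0.731% in unstimulated KO and 3.76 ± 1.48% in unstimulated control cells (SD, n = 3 each). KO cells had less Cox7a1 than control cells under M2, by −0.70 (limma adjusted p = 0.0417). That call was lost in 7 of 14 alternatives (adjusted p from 0.00392 to 0.143), including each of the 6 that left out a library, with 0.0502, 0.143 and 0.0643 without KO M2 replicates 1, 2 and 3, and 0.0636, 0.137 and 0.0627 without control M2 replicates 1, 2 and 3.

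Cox6a2, another muscle isoform gene, had 0.34, 0.54 and 0.72 TPM in KO cells and 1.08, 0.52 and 0.5 TPM in control cells under M1, against 5.98, 9.64 and 8.94 TPM in unstimulated KO cells and 9.11, 13.93 and 11.08 TPM in unstimulated control cells. It fell without overlap by 2.57 in KO (limma adjusted p = 2.7e-08) and 2.86 in control cells (6.83e-09), and under M2 by 0.87 in KO (0.00343) and 1.27 in control cells (0.000194). So Cox6a2 and Cox7a1 both fell under M1 and moved in opposite directions under M2. Cox4i2, the form of subunit 4 known from lung and low oxygen, had 1.66, 1.29 and 2.58 TPM in KO cells and 1.1, 0.78 and 0.3 TPM in control cells under M1. It was listed at 0.47, 0.4 and 0 TPM in unstimulated KO cells and at 0.18, 0 and 0.29 TPM in unstimulated control cells. Under M2 it had 1.56, 0.59 and 1.65 TPM in KO cells and 1.06, 1.94 and 1.13 TPM in control cells. This rise was called by limma in both genotypes and lost in 0 of 13 alternatives. All unstimulated libraries lay below 1 TPM, so Cox4i2 passed the filter only through stimulated libraries. Under M1 it was the complex IV gene called higher, by 1.14 in KO (limma adjusted p = 0.000194) and by 0.56 in control cells (0.0321), always at a level below 3 TPM. The M1 call in control cells was lost in 5 of 13 alternatives (adjusted p from 0.00771 to 0.139): without a filter (0.0502), and without control M0 replicate 1 (0.055) or 2 (0.112) or control M1 replicate 1 (0.139) or 2 (0.0778).

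Cox7a2l fell the least of the abundant complex IV genes, by 0.22 in KO (limma adjusted p = 1.44e-06) and by 0.27 in control cells (8.16e-08). Its direction depended on scaling, with rises of 0.40 in KO and 0.29 in control cells under TMM, and of 0.32 in KO and 0.20 in control cells under median ratios. Within a library, it made 70.53 ± 0.637% of the summed Cox7a2 and Cox7a2l level in KO and 70.73 ± 0.770% in control cells under M1, against 56.34 ± 1.49% in unstimulated KO and 54.42 ± 0.584% in unstimulated control cells (SD, n = 3 each). The libraries of M1 and unstimulated cells did not overlap in this share.

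In complex V all 17 genes fell under M1 in both genotypes on the deposited scale, with a median of −1.22 in KO and −1.39 in control cells. In each genotype 16 fell and 1, Atp5f1, rose with TMM, and 16 fell with median ratios, where Atp5f1 did not pass. Its 3 c subunit genes, Atp5g1, Atp5g2 and Atp5g3, encode the same mature protein of the membrane ring that turns with the proton flow. They have close copies elsewhere in the genome, and how reads shared with such copies were assigned is unknown, so their levels are uncertain. Atp5g1 had 44.96, 39.66 and 44.12 TPM in KO cells and 40.63, 43.32 and 47.29 TPM in control cells under M1, against 352.89, 341.14 and 336.53 TPM in unstimulated KO cells and 332.99, 354.02 and 338.06 TPM in unstimulated control cells. It fell by 2.97 in KO (limma adjusted p = 6.34e-21) and by 2.94 ± 0.0534 in control cells (8.97e-21), and the genotypes overlapped. On this log2(TPM + 1) scale these were the lowest values of the tested members, while with a pseudocount of 0.1 TPM the low Cox6a2 had −3.73 in KO and −3.90 in control cells.

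Atp5g2 had 129.12, 128.97 and 126.22 TPM in KO cells and 124.04, 126.24 and 120.03 TPM in control cells under M1, against 660.86, 699.56 and 671.67 TPM in unstimulated KO cells and 652.85, 656.07 and 660.05 TPM in unstimulated control cells. It fell by 2.39 in KO (limma adjusted p = 2.07e-22) and by 2.40 in control cells (2.27e-22). Atp5g3 had 219.62, 220.76 and 222.03 TPM in KO cells and 229.23, 223.6 and 228.6 TPM in control cells under M1, against 649.83, 651.4 and 626.22 TPM in unstimulated KO cells and 617.08, 641.37 and 639.82 TPM in unstimulated control cells. It fell by 1.54 in KO (1.51e-19) and by 1.47 in control cells (3.44e-19), the least of the 3.

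**Figure D4:**
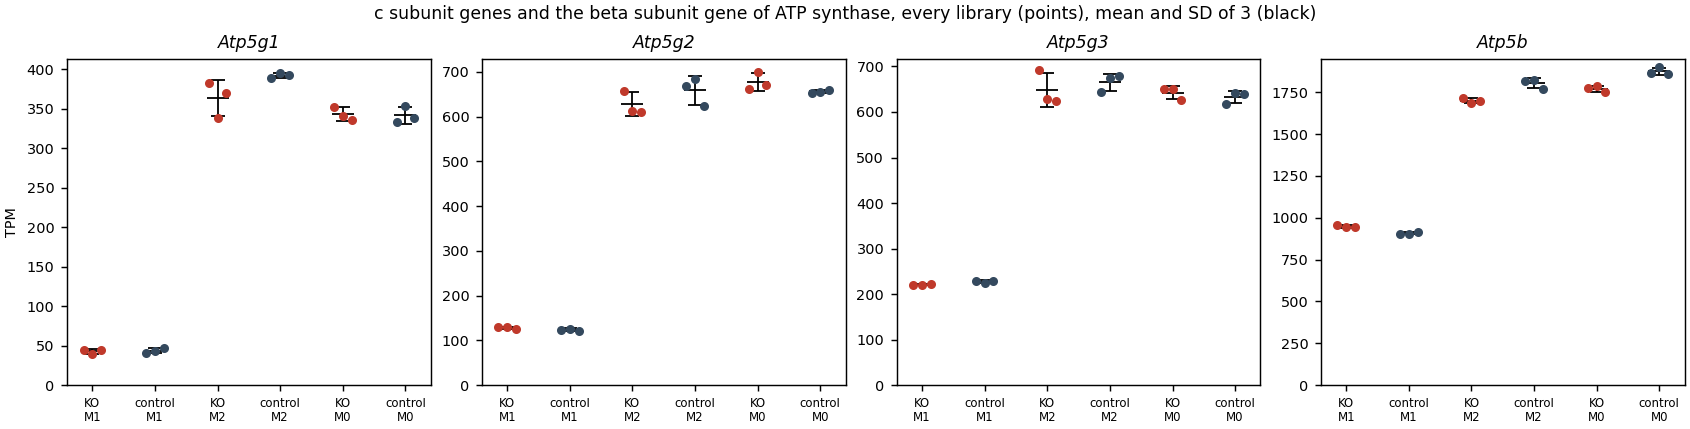
TPM of the 3 c subunit genes and of Atp5b in every library (points), with the mean and SD of 3 libraries (black), in KO (red) and control (blue) cells under M1, M2 and without stimulation. Each axis starts at 0. The M1 libraries of Atp5g1 sit near 45 TPM and those of Atp5b between 904.09 and 959.72 TPM, so the drop is deeper for the c subunit gene.

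The makeup of the c subunit transcripts therefore differed. Atp5g3 made 56.35 ± 0.498% of their sum in KO and 57.60 ± 0.672% in control cells under M1, against 38.62 ± 0.390% in unstimulated KO and 38.80 ± 0.285% in unstimulated control cells. Atp5g1 made 10.95 ± 0.668% in KO and 11.09 ± 0.817% in control cells under M1, against 20.65 ± 0.529% in unstimulated KO and 20.95 ± 0.427% in unstimulated control cells (SD, n = 3 each). As a sum, the c subunit genes held 23.6% of their unstimulated level in KO and 24.2% in control cells.

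The F1 head, where ATP is made, fell less. Its 5 genes (Atp5a1, Atp5b, Atp5c1, Atp5d and Atp5e) all fell, with a median of −1.14 in KO and −1.19 in control cells. Atp5b, the catalytic beta subunit and the most abundant member of complex V, had 959.72, 945.51 and 944.98 TPM in KO cells and 904.91, 904.09 and 913.37 TPM in control cells under M1, against 1777.42, 1784.51 and 1752.1 TPM in unstimulated KO cells and 1864.25, 1898.34 and 1860.97 TPM in unstimulated control cells. Its fold change was −0.90 ± 0.0216 in KO (limma adjusted p = 3.81e-19) and −1.05 ± 0.0216 in control cells (3.66e-20), a difference of 0.15 (0.00086). The ratio of the summed c subunit TPM to Atp5b TPM was 0.412 ± 0.00255 in KO and 0.4345 ± 0.000953 in control cells under M1, against 0.939 ± 0.00813 in unstimulated KO and 0.870 ± 0.0102 in unstimulated control cells (SD, n = 3 each). Atp5f1, subunit b of the stalk, had −0.49 in KO and −0.46 in control cells, but its direction depended on scaling, with 0.13 in KO (limma adjusted p = 0.00414) and 0.09 in control cells (0.0352) under TMM, and 0.05 in KO (0.229) and 0.0049 in control cells (0.906) under median ratios.

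The promoters of 66 members could be matched in a RefSeq table of build GRCm38.p6, as windows of 250 bases before to 50 bases after the start that this table gives. That start lay within 10 bases of the outer 5′ end of the gene in the RefSeq gene table for 56 members. For the 10 others it lay further inside the gene, so their windows do not cover that outer end's promoter in full. For 6 of these 10 it lay over 250 bases inside, so their windows miss that promoter altogether. Of the genes shown, the start lay 63 bases inside for Atp5g1 and 1138 bases inside for Atp5g3, and at the outer end for the other 4. Stretches of 180 bases (150 before to 30 after the start) are shown for the c subunit genes, whose makeup differed under M1, for the complex III gene with the deepest fall, for the one higher in KO cells, and for the complex I gene that rose. All 6 lie on the minus strand and are written 5′ to 3′ in the direction of transcription. Capitals mark letters searched on both strands: CGCANGCG, the core of sites of the mitochondrial gene regulator NRF1, CCGGAAG, the core of ETS factor sites, and AAGATGGC, the core of YY1 sites. No matches overlap each other in these stretches.
Atp5g1, chr11:96075602-96075781: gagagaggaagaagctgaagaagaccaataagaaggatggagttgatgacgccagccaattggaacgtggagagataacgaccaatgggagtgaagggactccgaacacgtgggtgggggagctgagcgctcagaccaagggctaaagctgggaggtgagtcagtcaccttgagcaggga
Atp5g2, chr15:102671018-102671197: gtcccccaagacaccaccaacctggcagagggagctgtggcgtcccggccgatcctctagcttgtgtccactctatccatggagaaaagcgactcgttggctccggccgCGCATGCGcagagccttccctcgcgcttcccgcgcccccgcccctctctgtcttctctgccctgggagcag
Atp5g3, chr2:73911297-73911476: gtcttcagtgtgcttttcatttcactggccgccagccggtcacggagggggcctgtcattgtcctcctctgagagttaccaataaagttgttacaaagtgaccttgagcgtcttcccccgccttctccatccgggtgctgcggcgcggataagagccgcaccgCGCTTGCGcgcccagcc
Uqcr11, chr10:80406792-80406971: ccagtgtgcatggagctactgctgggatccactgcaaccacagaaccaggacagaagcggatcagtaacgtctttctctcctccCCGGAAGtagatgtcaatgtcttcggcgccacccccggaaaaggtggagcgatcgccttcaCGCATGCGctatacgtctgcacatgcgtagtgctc
Uqcrh, chr4:116075041-116075220: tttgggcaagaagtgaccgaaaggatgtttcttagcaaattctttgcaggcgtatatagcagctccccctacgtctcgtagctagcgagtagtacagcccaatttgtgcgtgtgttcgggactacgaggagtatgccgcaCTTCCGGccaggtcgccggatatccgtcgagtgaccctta
Ndufs4, chr13:114388065-114388244: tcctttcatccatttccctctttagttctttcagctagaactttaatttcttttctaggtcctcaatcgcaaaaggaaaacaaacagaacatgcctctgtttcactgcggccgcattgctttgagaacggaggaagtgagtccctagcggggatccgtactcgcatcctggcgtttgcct

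The NRF1 letters stood in the windows of 25 of the 66 members (37.9%), against 20.3% of 8784 tested genes with a promoter and 9.22% of all 27025 genes with one. They were found in 9 of 13 complex V genes and in 1 of 13 complex IV genes (7.69%). By complex the share was 31.2% for complex I, 66.7% of 3 complex II genes, 60.0% of 5 complex III genes and 69.2% for complex V. The ETS letters were in 24.2% of members, beside 21.5% of tested genes and 9.93% of all genes. The YY1 letters were in 13.6% of members, beside 5.73% of tested genes and 3.19% of all genes, and in 7 of 32 complex I genes. The median M1 response in control cells was −1.39 for 25 members with the NRF1 letters and −1.24 for 38 tested members without, a smaller gap than the spread among the members. The 25 include Ndufs5, from which no change is read. For the other letters the gap went the other way. The median was −1.01 for 16 members with the ETS letters and −1.33 for 47 without. For the YY1 letters it was −1.11 for 9 with and −1.31 for 54 without. Of the genes shown, Atp5g2, Atp5g3 and Uqcr11 carried the NRF1 letters, Uqcr11 and Uqcrh the ETS letters, Ndufs4 the YY1 letters outside the stretch, and Atp5g1 none of them.

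Under M2 the members moved little. In control cells 27 rose, 7 fell and 45 did not pass, with a median of 0.04 beside −0.05 over all genes tested, of which 28.4% were called higher and 37.0% lower. In KO cells 17 rose, 24 fell and 38 did not pass, with a median of −0.01 beside −0.09 over all genes, of which 29.6% were called higher and 43.2% lower. Of the members, 16 rose and 7 fell in both genotypes, and none was called in opposite directions. These overlaps were not counted over all genes tested. Without KO M2 replicate 1, 12 rose and 30 fell in KO cells. The split in KO cells depended on scaling, since 28 rose and 8 fell under TMM and 22 rose and 16 fell under median ratios. In control cells TMM gave 41 rises and 2 falls.

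By complex in control cells under M2, 8 genes of complex I rose and 3 fell, complex III had 5 rises and no fall by limma (0 falls also at an unadjusted p under 0.05), complex IV 8 rises and 1 fall, and complex V 6 rises and 2 falls, while 1 of 4 complex II genes fell. In KO cells complex I had 7 rises and 13 falls, complex II 3 falls, complex III 1 of each, complex IV 5 rises and 2 falls, and complex V 4 rises and 5 falls. These splits depended on scaling. In KO cells complex I had 11 rises and 6 falls with TMM, and 9 and 10 with median ratios. Complex II had 0 falls with TMM and 2 with median ratios. Complex V had 7 rises and 1 fall with TMM, and 5 and 2 with median ratios. In control cells TMM gave 16 rises and 1 fall in complex I, and 2 rises and 0 falls in complex II. After Ndufv3 the next rise of complex I was that of Ndufa13, by 0.44 in KO (limma adjusted p = 4.48e-06) and by 0.36 in control cells (5.54e-05). Ndufb3, an accessory subunit of the membrane arm, fell by 0.32 in KO (1.95e-06) and by 0.29 in control cells (8.5e-06). Ndufs4, which rose under M1, fell under M2, by 0.37 in KO (1.88e-05) and by 0.19 in control cells (0.0108). It had 65.53, 56.82 and 57.07 TPM in KO and 64.95, 69.53 and 72.99 TPM in control cells under M2, all below its unstimulated libraries. The call in control cells was lost under TMM (0.124) and without control M2 replicate 1 (0.0658), with adjusted p from 0.0049 to 0.124 over 14 alternatives.

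The knockout effects were small and differed by condition. Under M1, 25 members were higher in KO cells, 11 lower and 43 not called, beside 16.9% of all genes tested called higher and 33.4% lower. Under M2, 4 were higher, 20 lower and 55 not called, beside 12.7% higher and 18.3% lower among all genes. Without stimulation, 10 were higher, 3 lower and 66 not called, beside 8.86% higher and 10.3% lower. In 30 members no knockout comparison was called, a count not made over all genes tested. The medians were 0.01 under M1, −0.04 under M2 and 0.04 without stimulation, beside −0.06, −0.03 and 0.00 over all genes tested. Under M2 the split of calls depended on scaling, with 9 higher and 8 lower under TMM and 10 higher and 8 lower under median ratios. It also depended on single libraries: 12 were lower without control M2 replicate 2, 11 without KO M2 replicate 2 and 10 without KO M2 replicate 3. Without KO M2 replicate 1, 26 were lower. Without stimulation, 5 were higher without KO M0 replicate 2 or 3, and 1 was lower without control M0 replicate 2 or KO M0 replicate 3.

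**Figure D5:**
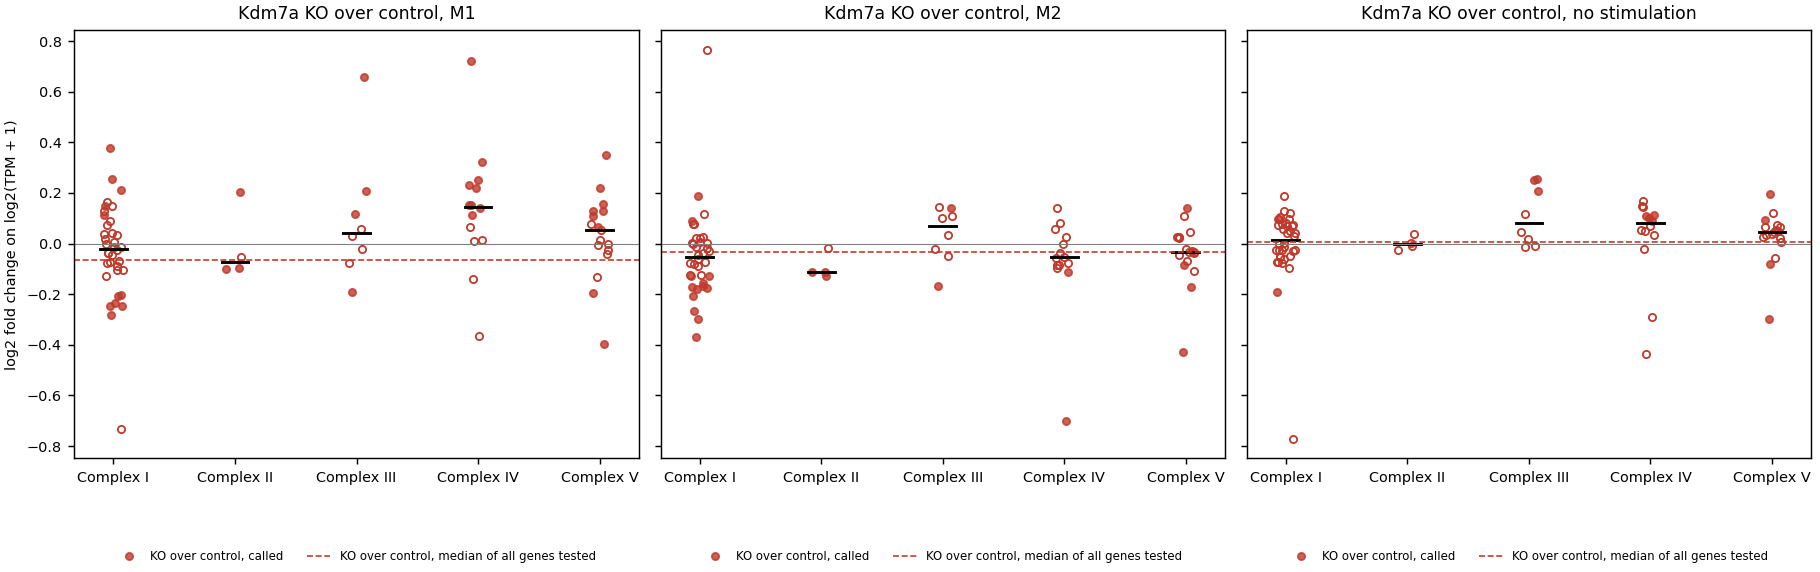
Log2 difference (log2 of TPM + 1, KO minus control) of every tested member by complex, under M1, under M2 and without stimulation. Filled points passed the test and open points did not, black bars are medians of a complex and the dashed line is the median of all genes tested. Under M1 most called points of complexes IV and V lie above 0, and under M2 most called points of complex I lie below 0. Values are on the deposited scale, and the M2 split of complex I depended on scaling.

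By complex under M1, complex IV had 9 genes higher in KO cells and none lower by limma, with a median of 0.15, and 0 were lower at an unadjusted p under 0.05. Complex V had 7 higher and 2 lower, complex III 3 higher and 1 lower, complex I 5 higher and 6 lower, and complex II 1 higher and 2 lower. Of the F1 head 4 of 5 genes were higher, and of the c subunit genes none was called by limma (0 also at an unadjusted p under 0.05). Among the F1 head calls, that of Atp5e was lost in 8 of 14 alternatives (limma adjusted p from 0.00234 to 0.126). That of Atp5b was lost in 1 of 14 (0.000273 to 0.0634). Under M2, 11 complex I genes were lower and 2 higher in KO cells, 3 of 4 complex II genes were lower, complex III had 1 of each, complex IV 2 lower, and complex V 3 lower and 1 higher. Without stimulation, 3 complex III and 4 complex IV genes were higher and none of these complexes lower by limma (0 also at an unadjusted p under 0.05), complex I had 1 of each and complex V 2 of each. With TMM and with median ratios, 0 complex IV genes were called without stimulation, while complex III had 3 higher and complex V had 1 of each. The same scalings gave 0 lower calls in complex II under M1. For complex I under M1, TMM gave 9 higher and 6 lower, and median ratios gave 10 higher and 6 lower. Complex V under M1 had 9 higher and 2 lower with both. Under M2 the split by complex depended on scaling too. Both scalings gave 4 lower and 3 higher in complex I and 1 lower in complex II. They gave 1 lower and 3 higher in complex III, and the same in complex V.

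Cox7b, an accessory subunit of complex IV, had 191.06, 187.4 and 192.16 TPM in KO cells and 150.87, 152.16 and 152.14 TPM in control cells under M1. KO libraries were higher without overlap, by 0.32 ± 0.0377 (limma adjusted p = 6.79e-07). Atp5j2, subunit f of the ATP synthase, had 233.35, 221.69 and 223.99 TPM in KO cells and 172.62, 182.84 and 176.79 TPM in control cells under M1. It too was higher in KO cells without overlap, by 0.35 ± 0.0415 (8.95e-07). Both fell under M1 in both genotypes and fell less in KO cells, with differences between the responses of 0.21 for Cox7b (limma adjusted p = 0.00427) and 0.30 for Atp5j2 (0.000531). Atp5sl had 6.24, 6 and 6.14 TPM in KO cells and 7.83, 8.74 and 8.58 TPM in control cells under M1, lower in KO cells by −0.40 (6.31e-06).

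Within complex I, Ndufa5 and Ndufa12, accessory subunits of the Q and N modules, were lower in KO cells under both stimulations. Ndufa5 had 26.59, 29.34 and 27.97 TPM in KO cells and 34.29, 36.14 and 32.34 TPM in control cells under M1, and 110.43, 99.52 and 90.34 TPM in KO cells against 129.22, 122.96 and 116.89 TPM in control cells under M2. The differences were −0.28 under M1 (limma adjusted p = 0.00209) and −0.30 under M2 (0.00282), without overlap in either. Ndufa12 differed by −0.25 under M1 (0.00553) and −0.37 under M2 (0.000429), the largest fall under M2 in complex I. Uqcrb, the complex III subunit that helps form the quinone site, was lower in KO cells by −0.19 under M1 (4.42e-05) and by −0.17 under M2 (0.000381), against the direction of Uqcrh.

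The genotypes' responses were compared directly. The M1 response differed in 20 of 79 members, 11 of them with a higher and 9 with a lower log2 fold change in KO cells, beside 12.1% and 23.9% of all genes tested. Under TMM and under median ratios the split was 16 and 5. The M2 response differed in 8 members, all lower in KO cells, beside 7.05% of all genes lower and 7.06% higher. None was higher by limma, and at an unadjusted p under 0.05 0 were higher and 20 lower. That count of 8 was 1 under TMM and under median ratios. Without KO M2 replicate 1 it was 20, and without KO M2 replicate 3 it was 1. It was 4 without KO M2 replicate 2, control M2 replicate 1, control M2 replicate 2 or control M0 replicate 1, 5 without control M0 replicate 3 and 3 without KO M0 replicate 2. Across the 79 members the M1 fold changes of KO and control cells correlated with a Pearson r of 0.973 and a Spearman rho of 0.974. The M2 fold changes correlated with 0.675 and 0.720. Both are descriptions across genes that are not independent. The 79 include Ndufs5, from which no change is read. Its M2 values of −0.77 in control and 0.77 in KO cells differ by 1.54, the largest difference among the members. The M2 correlation without it was not computed.

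Genes linked to the chain but outside the symbol patterns were read from lists of related genes. In the M1 response of control cells, Cyc1 (cytochrome c1 of complex III) fell with a log2 fold change of −1.54, the carrier cytochrome c gene Cycs with −0.46 (0.08 with TMM and 0.0026 with median ratios, neither passing), the complex I acyl carrier gene Ndufab1 with −1.34 and Atpif1, the inhibitor of the ATP synthase, with −2.56, all passing limma's test on the deposited scale. Atpif1 had 33.68, 32.54 and 32.43 TPM in KO cells and 35.6, 36.39 and 36.65 TPM in control cells under M1, against 196.14, 203.57 and 197.75 TPM in unstimulated KO cells and 214.76, 222.9 and 217.48 TPM in unstimulated control cells. The M1 libraries were lower without overlap (limma adjusted p = 8.44e-22 in KO and 9.91e-22 in control cells). Ndufa4l2, a relative of Ndufa4, stayed at or below 1.33 TPM in all libraries.

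Ndufa4, the most abundant gene of the complex I pattern, had 207.26, 195.54 and 203.59 TPM in KO cells and 207.11, 209.77 and 220.54 TPM in control cells under M1, against 606.5 ± 20.2 TPM in unstimulated KO and 582.2 ± 8.41 TPM in unstimulated control cells (SD, n = 3 each), with log2 fold changes of −1.58 in KO and −1.45 in control cells that passed limma's test. AA467197, whose product NMES1 is related to Ndufa4 and is known from human cells (as C15orf48) to take its place in complex IV during inflammation, moved the other way. It had 17.41, 17.31 and 17.14 TPM in KO cells and 23.09, 22.92 and 18.32 TPM in control cells under M1, was listed at 0 in the 3 unstimulated KO libraries, and at 0, 0 and 0.33 TPM in unstimulated control cells. Under M2 it had 13.59, 16.08 and 11.28 TPM in KO cells and 3.14, 3.93 and 3.74 TPM in control cells. The KO libraries under M2 were all above the control ones, by 1.66 ± 0.121 (limma adjusted p = 2.89e-09), and its M2 response was greater in KO cells by 1.80 (4.98e-07). Under M1 the difference of −0.29 did not pass (0.0545). AA467197 made 7.88 ± 0.217% of the summed AA467197 and Ndufa4 level in KO and 9.18 ± 1.31% in control cells under M1, and 2.49 ± 0.474% in KO and 0.592 ± 0.0608% in control cells under M2 (SD, n = 3 each).

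Assembly factors were read in the M1 response of control cells, beside the 56.9% of all genes called lower and 32.2% called higher. For complex I, 12 of 14 were lower and 1 higher, led by Ndufaf4 (−3.20) and Ndufaf6 (−2.57). For complex II 3 of 4 were lower, with Sdhaf1 at −2.31 and Sdhaf3 at −1.50, and for complex III all 6, with Bcs1l at −2.72 and Lyrm7 at −1.88. For complex IV 11 of 19 were lower, 4 higher and 4 not called, a share of lower calls near that of all genes, with a median of −0.50. They included Cox10 at −1.63 and Cox16 at −1.61 among the falls and the copper chaperone gene Cox17 at 1.14 among the rises. For complex V all 3 were lower, with Atpaf1 at −1.48 and Tmem70 at −1.18. With TMM the complex IV factors had 9 lower and 7 higher calls, those of complex I had 10 lower and 2 higher, and those of complexes II and III had 1 higher each. Of 13 nuclear regulators of mitochondrial genes, 11 were lower and 2 higher, with a median of −1.85. Pprc1, a coactivator of NRF1, was at −2.69 and Lrpprc, which stabilises mitochondrial messenger RNA, at −2.62. Of 20 other mitochondrial protein genes, 19 were lower and 1 higher (17 and 3 with TMM), with a median of −1.15, led by the chaperone gene Hspd1 (−3.16) and the prohibitin gene Phb (−2.65). All values of the lists are log2 fold changes by limma on log2(TPM + 1), and no list was tested as a set.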

How the data were processed

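Poly(A) RNA of 18 libraries was sequenced, in 6 groups of 3. The authors deposited TPM per gene symbol, with the same total in each library. Trim Galore (no version) and mm10 are named per the submitters' processing notes, and the aligner, counting tool and gene annotation were not given in the sources used here. The deposited TPM keep no depth, so no counting interval or detection limit is given, and the assignment of reads that match several gene copies is unknown.

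Tests used limma 3.58.1 (R 4.3.3) with trend and robust moderation on log2(TPM + 1), in a single model of 6 group means, so all groups share the estimate of spread. Of all symbols, 11548 reached 1 TPM in 3 or more libraries and were tested, with Benjamini-Hochberg adjustment over all of them, two-sided. Fold changes on this scale understate those of low genes. The script was tested on simulated data. No 2 libraries among 153 pairs held identical values. The 9 comparisons were the M1 and M2 responses of each genotype, the knockout in each condition, and the genotype differences of both responses.

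Alternatives were TMM and median-ratio factors on TPM, no filter, a filter of 5 TPM, a pseudocount of 0.1 TPM, a replicate block, only the groups compared, limma without the trend, and each library left out. The members, lists and the naming rule were chosen with earlier results of these data known. The rule names all complex II genes, in each comparison and complex the called genes with the largest rise and fall and those against the complex's median, the most abundant gene of each complex, the complex IV isoform, c subunit and F1 head genes, genes at 0 in some libraries, and linked genes outside the patterns. Not all genes it names are printed, and Cox17 and values of named genes in further comparisons were added with the values seen. Promoters came from RefSeq (GRCm38.p6, the release of mm10), and 80 members matched the RefSeq gene table by symbol and 3 by synonym.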

Additional observations from a re-analysis of the deposited data

Results flagged for a closer look

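The M1 and M2 responses differed between the genotypes, by a limma interaction test over all genes, in the members listed here. Values are the log2 response of KO cells minus that of control cells.

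In the M1 response, 11 members had a higher value in KO cells. They were Ndufv3 (0.41), Uqcrh (0.4), Atp5j2 (0.3), Ndufs3 (0.23), Ndufa2 (0.22), Cox7b (0.21), Sdhd (0.21), Cox6b1 (0.18), Ndufb11 (0.18), Atp5b (0.15) and Cox8a (0.12). The 9 with a lower value were Atp5sl (−0.47), Ndufa10 (−0.33), Ndufs8 (−0.29), Ndufa5 (−0.28), Ndufb4 (−0.28), Atp5h (−0.26), Ndufs1 (−0.23), Atp5k (−0.2) and Uqcrb (−0.17). Over 20 alternatives each, the call was lost in 12 for Cox8a, 11 for Ndufa2, 9 for Ndufb11, 9 for Ndufa5, 6 for Atp5k, 2 for Ndufb4, 2 for Uqcrb and 1 for Cox6b1, and in 0 for the other 12 members. Those of Ndufa5, Atp5k, Ndufb4 and Uqcrb were among the calls lost with TMM and with median ratios. Ndufa10, for example, fell under M1 by 1.86 in KO and by 1.53 in control cells.

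In the M2 response, 8 members had a lower value in KO cells: Ndufa5 (−0.3), Ndufa12 (−0.29), Ndufc2 (−0.25), Atp5sl (−0.24), Ndufa4 (−0.24), Ndufv2 (−0.22), Cox7b (−0.19) and Uqcrb (−0.15). Of the 20 alternatives, 14 lost the call of Ndufa5, 14 that of Ndufa12, 13 that of Atp5sl, 11 that of Ndufv2, 7 that of Uqcrb, 5 that of Cox7b and 5 that of Ndufc2, and with TMM and with median ratios each of these 7 was lost. That of Ndufa4 was lost in 0 of 20 (adjusted p by limma from 0.000372 to 0.0281).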

How the results depend on the processing

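The number of falling members held under M1: leaving out single libraries gave 74 to 75 in control and 73 to 74 in KO cells, and no alternative moved either count by over 1.5 times. Rises under M1 numbered 9 with TMM, 6 with median ratios, 1 without a filter and 1 with a 5 TPM filter in control cells (main value 2; 1 to 3 without a library) and 13 with TMM and 12 with median ratios in KO cells (3; 2 to 3). Under M2, TMM gave 41 rises and 2 falls in control cells (27 and 7; 23 to 26 and 5 to 7 without a library) and 28 rises and 8 falls in KO cells (17 and 24; 12 to 18 and 19 to 30). Knockout counts without a library were 18 to 22 higher and 10 to 12 lower under M1, 2 to 5 higher and 10 to 26 lower under M2, and 5 to 8 higher and 1 to 3 lower without stimulation. Under M2, 9 (TMM) or 10 (median ratios) were higher, 8 lower by both, and 12 lower with only the groups compared. Without stimulation 6 (TMM), 5 (median ratios) and 5 (no trend) were higher. The M1 difference between genotypes had 5 lower calls with TMM and 5 with median ratios, and 7 to 11 higher and 7 to 11 lower without a library. The M2 difference had 1 lower call with TMM and 1 with median ratios, 5 without a filter, 5 with a pseudocount of 0.1 TPM and 4 without the trend, and 0 higher and 1 to 20 lower without a library.

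The M1 fold change of Cox7a2l turned to 0.29 (TMM) and 0.20 (median ratios) in control cells and 0.40 and 0.32 in KO cells. In KO cells under M1, Uqcrh turned to 0.23 and 0.15 and Sdhd to 0.028 (TMM). Under M2 with TMM, Atp5b turned to 0.0075 in control and 0.032 in KO cells and Sdha to 0.00041 in KO cells. Beyond the scaling itself, the cause of these changes was not tested. Of 2167 recomputed values of 147 named calls, 1901 kept direction and call, 256 lost the call and 10 reversed.

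The labels do not say that a replicate number marks a shared source, and the numbers did not meet the rule for pairing (every pair correlating over 0.1). Same-numbered libraries of different groups correlated between −0.159 and 0.150 (median 0.018, 45 pairs) and differently numbered ones between −0.210 and 0.180 (median −0.011, 90 pairs). As a hint from the data, 11 of 18 libraries correlated best with their own number. The replicate block gave 75 falls and 2 rises under M1 in control cells and moved no count of all members by over 1.5 times. Depth is unknown in TPM, so low isoform genes such as Cox4i2 are limited by a precision that cannot be given.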
